A study of Mus musculus with 6 samples.

Results

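Extracellular ATP and adenosine act as signals in tumors, and 5 genes on T cells handle them. Described here are the regions of open chromatin at Entpd1 (CD39), Nt5e (CD73), Cd38, Adora2a (a Gs-coupled adenosine receptor) and P2rx7 (an ATP-gated cation channel). A region was taken as a gene's own if it shared at least 1 base with the gene's interval, or if it was intergenic with that gene as the nearest protein-coding gene within 100 kb. This gave 53 of the 74686 regions in the deposited table: 17 at Entpd1, 15 at Nt5e, 6 at Cd38, 7 at Adora2a and 8 at P2rx7. All 53 passed the filter on low counts, and they belong to 5 of the 15956 genes that hold a region. The genes were grouped by their roles in ATP, NAD and adenosine handling.

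Open chromatin was measured by ATAC-seq, a method in which a transposase cuts and tags DNA that is not packed away. The cells were CD8 T cells with the transgenic OT1 receptor, which is specific for ovalbumin. They were recovered by flow sorting on CD8 and CD45.1 (a marker that sets transferred cells apart from the host's) from tumors of B16-OVA-GP61, a mouse melanoma line named for the ovalbumin and GP61 antigens. In 3 libraries the tumors held no SMARTA cells, and in 3 they did. SMARTA cells are CD4 T cells with a transgenic receptor, known to recognise GP61. Mouse strain, age, cell numbers and days after transfer are not given in the labels, nor is it stated whether replicates came from separate animals, so the p-values measure only the spread between these libraries, which may be technical. The comparison asks how the presence of these CD4 T cells goes with the chromatin of tumor-specific CD8 T cells.

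In the space around cells, CD39 degrades ATP to AMP and CD73 converts AMP to adenosine, which acts through the receptor encoded by Adora2a to raise cyclic AMP and restrain T cell receptor signalling. CD38 consumes NAD. P2X7, the product of P2rx7, opens when ATP is high, and in mouse T cells it can also be gated by ADP-ribosylation of the channel, which uses extracellular NAD. CD39 and CD38 are commonly high on exhausted CD8 T cells in tumors, while P2rx7 is known for its part in memory CD8 T cells.

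With SMARTA cells, summed accessibility fell at Cd38 and at Adora2a, where 3 of 6 and 2 of 7 regions closed and 0 opened. P2rx7 went the other way: all 8 regions assigned to it had positive log2 folds, and 1 opened, but its sum did not pass (edgeR adjusted p = 0.058). The Cd38 sum passed with each library left out. The Adora2a sum and the opened P2rx7 region did not always pass. A region between P2rx7 and its neighbour P2rx4, assigned to P2rx4 by distance, closed. At Entpd1 2 of 17 regions closed, to 23.5% and 18.7% of their level. Nt5e was split, with 2 closed regions upstream of the gene and 1 opened region inside it. Holding at least 1 call is common among genes with as many regions: 93.9% for Nt5e, 92.3% for Entpd1, 66.7% for P2rx7, 61.1% for Adora2a and 54.1% for Cd38. In total 9 of the 53 regions closed and 2 opened, against 10.4% closed and 4.68% opened (15.1% called) among all regions tested. The member shares were 17% closed and 3.77% opened, and the median log2 fold was -0.29, against 0.01 over all regions. A region is called closed or opened where edgeR's quasi-likelihood test gave an adjusted p under 0.05, and a positive log2 fold means more open with SMARTA cells. CPM values are counts scaled to library size. In a bulk sample, fewer cells with an open site and less opening per cell cannot be told apart.

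The libraries held 16595779 to 27182809 counts in the regions, and the median region had 62 to 114 counts. Replicate 2 with SMARTA cells stood apart from its group on the second principal component (19.2% of the variance, with a score of 89.1 against -72.1 and -36.6). It is the shallowest library. All 6 CD8 T cell markers had regions, and their sums overlapped between the groups (1131 to 1190 CPM without and 1032 to 1203 CPM with SMARTA cells), with 7 closed and 2 opened of 71 regions. The most accessible region had means of 5.95 and 6.09 log2 CPM at Cd8b1 and 6.66 and 6.75 at Cd3d (without and with SMARTA cells). At Cd8a it had 5.46 and 5.10, and 3 of 13 Cd8a regions closed. Some markers of other cells were also open, among them the melanocyte gene Pmel (6.99 and 7.16 log2 CPM), Mitf (4.88 and 5.21) and the myeloid factor Spi1 (4.43 and 4.29). The other melanoma markers with regions read 2.77 and 2.55 (Mlana), 2.29 and 1.23 (Sox10) and 0.97 and 0.30 (Dct). Other myeloid markers ranged from 4.53 and 3.69 at Cd68 to 0.80 and -1.10 at Adgre1 and 0.32 and 0.70 at Csf1r. Lyz2, Ms4a1, Cd79a, Xcr1, Tyr and Tyrp1 had no region in the table.

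Of the members, 4 had promoter windows in the RefSeq table (GRCm38.p6), all on the plus strand, and they are shown because they sit beside or within the regions described next. Each is the 250 bases before an annotated start, 5′ to 3′, or for the first Entpd1 start only the 41 bases that lie between Entpd1 and its neighbour Tctn3. Capitals mark matches on either strand to 6 motifs: AP-1 (TGANTCA), NFAT (GGAAAA), RUNX (TGTGGT), a hypoxia element (ACGTG), a CREB half-site (TGACG) and an E-box (CANCTG).
P2rx7, chr5:122643677-122643926: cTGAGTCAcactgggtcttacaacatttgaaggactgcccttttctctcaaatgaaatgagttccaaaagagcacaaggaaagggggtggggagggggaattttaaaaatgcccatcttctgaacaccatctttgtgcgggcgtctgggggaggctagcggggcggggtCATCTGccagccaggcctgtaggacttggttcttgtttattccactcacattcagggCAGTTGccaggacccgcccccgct
Entpd1, first start, chr19:40612325-40612365: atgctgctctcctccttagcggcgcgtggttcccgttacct
Entpd1, internal start, chr19:40659520-40659769: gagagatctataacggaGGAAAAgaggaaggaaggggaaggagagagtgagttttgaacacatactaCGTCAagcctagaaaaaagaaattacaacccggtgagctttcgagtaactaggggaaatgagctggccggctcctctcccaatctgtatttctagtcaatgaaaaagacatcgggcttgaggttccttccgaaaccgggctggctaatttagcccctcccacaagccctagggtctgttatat
Nt5e, chr9:88327359-88327608: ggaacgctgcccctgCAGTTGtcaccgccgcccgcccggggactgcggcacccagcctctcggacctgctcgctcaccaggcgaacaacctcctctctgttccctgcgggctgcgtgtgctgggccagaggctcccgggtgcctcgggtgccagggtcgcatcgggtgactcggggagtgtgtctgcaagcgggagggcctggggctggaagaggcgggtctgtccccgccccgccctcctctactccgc
Cd38, chr5:43868559-43868808: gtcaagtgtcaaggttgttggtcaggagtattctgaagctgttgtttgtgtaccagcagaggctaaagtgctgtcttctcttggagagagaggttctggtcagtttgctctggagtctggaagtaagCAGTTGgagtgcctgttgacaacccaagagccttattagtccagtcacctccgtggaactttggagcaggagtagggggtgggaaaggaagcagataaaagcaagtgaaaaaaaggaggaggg

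The windows differ in base composition. Nt5e has 72% G and C with 21 CpG dinucleotides, P2rx7 53.6% with 6, the internal Entpd1 start 47.2% with 8, and Cd38 48.8% with 1, where the median over 32851 windows of the same length is 52.4%. P2rx7 holds 1 AP-1 match and 2 E-box matches, the internal Entpd1 start 1 NFAT and 1 CREB half-site match, and Cd38 and Nt5e 1 E-box match each. Of all windows 6.75% hold the AP-1 motif, 20.4% NFAT, 14% RUNX, 16.6% the hypoxia element, 17.8% the CREB half-site and 44.8% the E-box, and a match describes only the letters. A deposited peak of all 6 libraries overlaps the windows of Cd38, Nt5e and both Entpd1 starts. P2rx7 has a second annotated start, whose window (chr5:122650133-122650382, not printed) has 50% G and C, 4 CpG dinucleotides, 1 E-box match and 0 AP-1 matches. Both P2rx7 windows have a peak in 0 lists, and the first tested region of that gene begins inside the gene. The full 250 bases before the first Entpd1 start, most of which lie in Tctn3, hold 1 CREB half-site and 2 E-box matches.

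**Figure D1:**
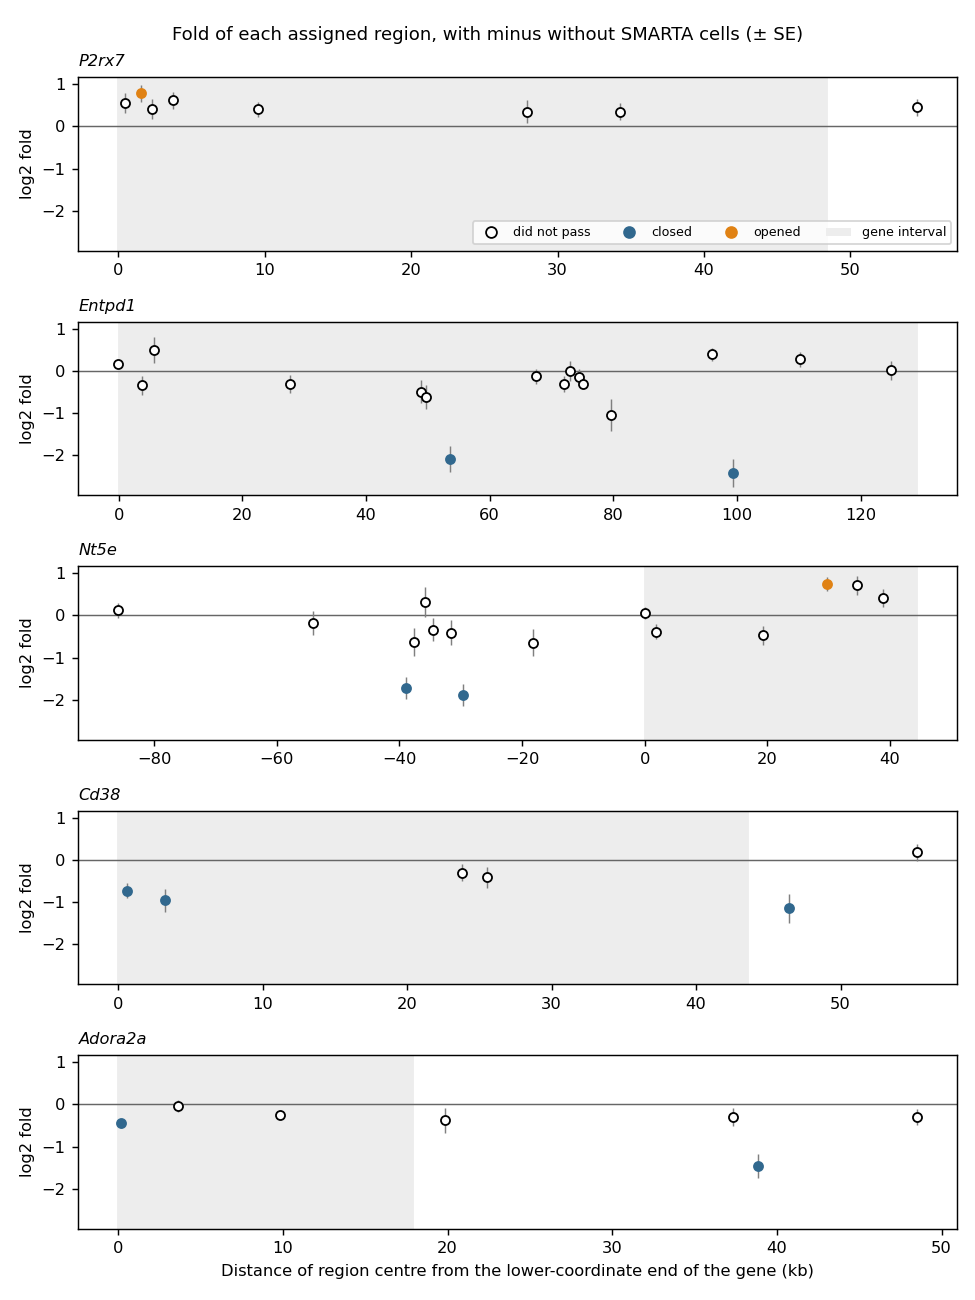
Log2 fold (with minus without SMARTA cells, ± SE) of the 53 regions against the distance of their centres from the lower-coordinate end of each gene in kb, with the gene interval shaded. Filled points passed an adjusted p of 0.05; all 8 P2rx7 points lie above 0 and all 7 Adora2a points below it, while the closed points of Entpd1 and Nt5e stand far below their neighbours.

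P2rx7 (chromosome 5, 122643927 to 122692336, GRCm38; 7 regions inside the gene and 1 beyond it) encodes the ATP sensor. Its opened region lies inside the gene, centred 1.58 kb from the start (122645308 to 122645708). Accessibility there was 3.74, 4.15 and 4.06 log2 CPM without SMARTA cells and 4.99, 4.27 and 4.96 with them. The groups did not overlap, and replicate 2 was the lowest of the libraries with SMARTA cells. The mean went from 3.99 ± 0.22 to 4.74 ± 0.41 (SD, n = 3 each), a log2 fold of 0.78 ± 0.20 SE or 1.72-fold (edgeR adjusted p = 0.028). This call did not stand when any 1 library other than replicate 2 with SMARTA cells was left out (edgeR adjusted p = 0.055 to 0.095), and without that replicate the adjusted p was 0.0013 by edgeR. With the replicate number as a block it was 0.054 by edgeR.

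The other 7 P2rx7 regions did not pass and had log2 folds of 0.35 to 0.62. The one nearest to the start (122644187 to 122644587) read 2.66, 2.92 and 2.97 log2 CPM without SMARTA cells and 3.71, 2.83 and 3.54 with them, so that only replicate 2 with SMARTA cells fell within the range of the other group. The region 3.72 kb from the start read 1.88, 1.64 and 2.08 against 2.56, 2.26 and 2.59 log2 CPM (log2 fold 0.62 ± 0.20, edgeR adjusted p = 0.066). In the region with the highest mean level, 9.57 kb from the start, the libraries read 3.80, 4.31 and 4.38 against 4.71, 4.43 and 4.61 log2 CPM. Its fold was 0.40 ± 0.18 (edgeR adjusted p = 0.16). In 4 of the 8 regions all libraries with SMARTA cells lay above all without, against 15.7% of all regions, and in 0 of them below. Of the 448 genes with as many regions, 3.12% had only positive folds. All 8 folds stayed positive under each scaling, with the block and with each library left out, 7 of 7 under a minimum mean count of 50. Without replicate 2 with SMARTA cells 3 P2rx7 regions opened.

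Entpd1 (chromosome 19, 40612366 to 40741602) encodes CD39, which takes ATP down to AMP, and its 17 regions all lie inside the gene. The region at the first start (40612129 to 40612529) covers the 41 bases printed above and is shared with Tctn3, which is read in the opposite direction, so its counts cannot be given to either gene. It was the most accessible of the 17, with 5.52, 5.75 and 5.66 log2 CPM without SMARTA cells and 5.83, 5.83 and 5.75 with them. The groups did not overlap, but the log2 fold of 0.16 ± 0.08 did not pass (edgeR adjusted p = 0.24).

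The closed Entpd1 regions lie deep in the gene. Centred 53.6 kb from the first start and beyond the internal start, the region 40665797 to 40666197 fell from 3.57, 3.70 and 3.76 to 2.08, 0.56 and 1.77 log2 CPM. That is a log2 fold of -2.09 ± 0.31, which leaves 23.5% of the level (edgeR adjusted p = 0.0021), and every library without SMARTA cells was above every library with them. A second region, 99.3 kb from the start (40711497 to 40711897), fell from 1.69, 2.54 and 1.99 to -0.51, 0.44 and -0.54 log2 CPM, or from 63, 149 and 94 counts to 12, 21 and 16. Its log2 fold was -2.42 ± 0.34, leaving 18.7% (edgeR adjusted p = 0.0015). Both calls held with each library left out, with edgeR adjusted p up to 0.015. In the deposited peak lists the second region has a peak in all 3 lists without SMARTA cells and in 0 with them, the first in 3 and in 2.

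No other Entpd1 region passed. A region at 79.7 kb read 3.60, 4.12 and 3.62 against 3.04, 1.39 and 3.22 log2 CPM, with replicate 2 far below the rest (log2 fold -1.05 ± 0.38, edgeR adjusted p = 0.089). The region next before the second closed one, at 96.0 kb, read 4.22, 4.53 and 4.70 against 4.95, 4.71 and 4.98 log2 CPM, a log2 fold of 0.39 ± 0.15 (edgeR adjusted p = 0.11). The other 12 regions had log2 folds of -0.62 to 0.49 and did not pass. Without replicate 2 with SMARTA cells, 3 Entpd1 regions closed and 2 opened. The called share of Entpd1 was 11.8% against the 15.1% of all regions, and 92.3% of the 78 genes with 17 regions hold at least 1 call.

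**Figure D2:**
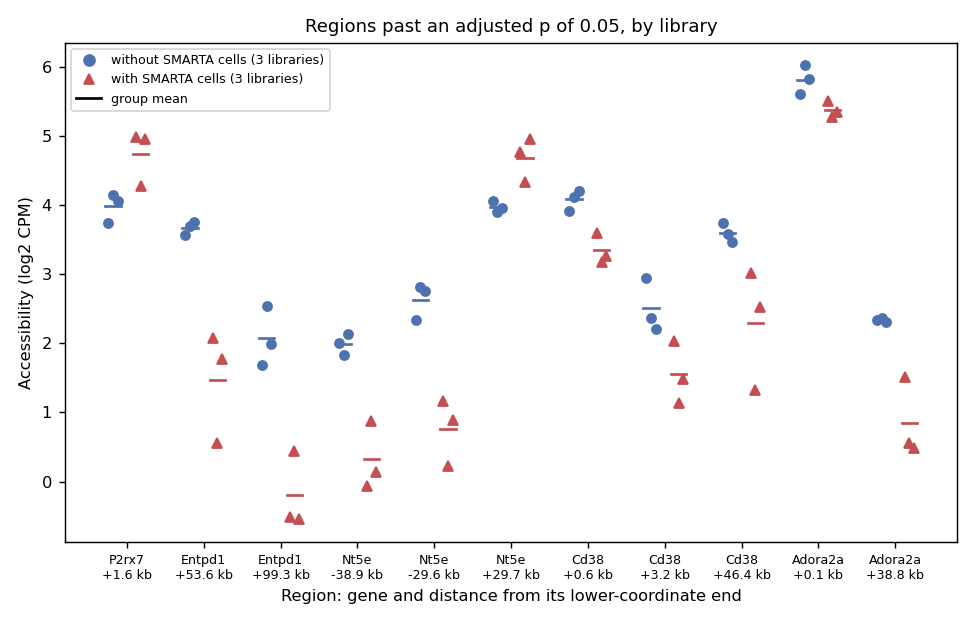
Accessibility (log2 CPM) of the 11 regions past the threshold in each of the 6 libraries, with circles for libraries without SMARTA cells, triangles for those with them and bars for group means. The groups do not overlap in any of the 11, but these were picked by p in the same libraries, so the separation adds no support. Among all regions, the libraries with SMARTA cells lie all above the others in 15.7% and all below in 18.5%. Replicate 2 with SMARTA cells is far below its group at the Entpd1 region 53.6 kb from the start (0.56) and the Cd38 region at 46.4 kb (1.32).

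Nt5e (chromosome 9, 88327609 to 88372089) encodes CD73, which makes adenosine from AMP. Its region over the start (88327380 to 88327780), which covers most of the window printed above, read 4.25, 4.20 and 4.56 log2 CPM without SMARTA cells and 4.47, 4.30 and 4.43 with them. The groups overlapped, and the log2 fold was 0.06 ± 0.15 (edgeR adjusted p = 0.85).

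Upstream, where 9 intergenic regions lie 18.1 to 85.7 kb from the gene, 2 regions closed. The one whose edge is 29.4 kb from the gene (88297821 to 88298221) fell from 2.33, 2.82 and 2.75 to 1.16, 0.23 and 0.89 log2 CPM, a log2 fold of -1.88 ± 0.26 (edgeR adjusted p = 0.0014). The other, 38.5 kb away (88288381 to 88289072), fell from 2.01, 1.83 and 2.13 to -0.07, 0.88 and 0.14 log2 CPM (-1.72 ± 0.27, edgeR adjusted p = 0.0026). Both held with each library left out (edgeR adjusted p up to 0.023). The second of these has a peak in all 3 lists without SMARTA cells and in 0 with them. The most accessible Nt5e region, 53.9 kb upstream, read 4.83, 4.75 and 4.81 against 4.78, 3.61 and 5.06 log2 CPM and did not pass (edgeR adjusted p = 0.72). The next protein-coding gene on that side, Tbx18, is 596.35 kb from Nt5e, and assignment by distance does not show which gene a site regulates.

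Inside Nt5e, the region 29.7 kb from the start (88357152 to 88357552) rose from 4.06, 3.90 and 3.96 to 4.76, 4.33 and 4.96 log2 CPM. Its groups did not overlap, and the log2 fold was 0.74 ± 0.17, or 1.67-fold (edgeR adjusted p = 0.018). The next region along, at 34.7 kb, read 1.71, 1.09 and 1.49 against 2.27, 1.82 and 2.28 log2 CPM (0.71 ± 0.23) and did not pass (edgeR adjusted p = 0.063). The opened call was lost without replicate 2 or 3 of the group without SMARTA cells or replicate 3 with them (edgeR adjusted p = 0.069 to 0.075). Without replicate 2 with SMARTA cells 2 Nt5e regions opened and 2 closed.

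Cd38 (chromosome 5, 43868809 to 43912374) encodes the NAD-consuming surface enzyme. Just past the start, where the printed window ends, the region 43869185 to 43869585 fell from 3.92, 4.12 and 4.20 to 3.60, 3.18 and 3.26 log2 CPM. This is the most accessible Cd38 region, and its log2 fold was -0.73 ± 0.18, leaving 60.2% (edgeR adjusted p = 0.023). A region 3.22 kb from the start (43871827 to 43872227) fell from 2.95, 2.37 and 2.21 to 2.04, 1.13 and 1.48 log2 CPM (-0.96 ± 0.28, edgeR adjusted p = 0.045). The groups did not overlap at either.

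The third closed Cd38 region lies 2.44 kb beyond the gene's other end (43914816 to 43915615). It fell from 3.74, 3.58 and 3.46 to 3.01, 1.32 and 2.53 log2 CPM (-1.15 ± 0.34, edgeR adjusted p = 0.043). Replicate 2 with SMARTA cells was the lowest, and without it the fold was -0.82 (edgeR adjusted p = 0.019). The regions at 23.8 and 25.5 kb had log2 folds of -0.30 and -0.41 and did not pass, and the farthest region, 11.6 kb beyond the gene, had 0.18. All 3 single-region calls of Cd38 were lost without replicate 3 with SMARTA cells and without replicate 2 or 3 of the other group, and 1 stayed when replicate 1 of the latter was left out. Without replicate 2 with SMARTA cells 2 of the 3 stayed, and the region 3.22 kb from the start did not pass (-0.78, edgeR adjusted p = 0.075). The summed counts of Cd38 passed each time.

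Adora2a (chromosome 10, 75316877 to 75334792) encodes the receptor that senses adenosine. Its region at the lower-coordinate end of the gene (75316824 to 75317224) fell from 5.60, 6.02 and 5.82 to 5.50, 5.27 and 5.35 log2 CPM. The gap between the groups was narrow, 5.60 against 5.50, and the log2 fold was -0.45 ± 0.11, leaving 73.3% (edgeR adjusted p = 0.025). An intergenic region 20.7 kb beyond the gene (75355506 to 75355906) fell from 2.34, 2.37 and 2.31 to 1.51, 0.56 and 0.49 log2 CPM (-1.46 ± 0.28, edgeR adjusted p = 0.0063).

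The most accessible Adora2a region, inside the gene at 9.83 kb, read 5.74, 5.98 and 5.91 against 5.66, 5.47 and 5.77 log2 CPM (-0.24 ± 0.10) and did not pass (edgeR adjusted p = 0.13). It passed under abundance-trended loess scaling (-0.35, edgeR adjusted p = 0.019). The other 4 regions had log2 folds of -0.38 to -0.03. All 7 folds were negative, as in 4.12% of the 607 genes with 7 regions, and 1 turned positive without replicate 3 of either group. The call at the gene's end was lost without replicate 2 or 3 of the group without SMARTA cells or replicate 3 with them (edgeR adjusted p = 0.081 to 0.11), while the intergenic call held each time (up to 0.039 by edgeR).

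To give 1 value per gene, counts were summed over each gene's regions and tested over all 15956 genes, of which 5.63% were lower and 1.97% higher with SMARTA cells (7.61% called). Cd38 read 5.48, 5.41 and 5.36 log2 CPM without SMARTA cells and 4.88, 4.34 and 4.67 with them, a log2 fold of -0.77 ± 0.12 or 1.70-fold lower (edgeR adjusted p = 0.0072). It passed with each library left out, at -0.90 to -0.64 and an edgeR adjusted p up to 0.039. Adora2a read 7.20, 7.39 and 7.33 against 7.05, 6.84 and 6.95 log2 CPM (-0.36 ± 0.08, edgeR adjusted p = 0.022). Its call was lost without replicate 2 or 3 of the group without SMARTA cells or replicate 3 with them, at -0.36 to -0.32 (edgeR adjusted p = 0.082 to 0.093).

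P2rx7 summed to 5.78, 5.99 and 6.06 log2 CPM without SMARTA cells and 6.62, 6.08 and 6.52 with them. The groups did not overlap, as in 14.8% of genes in that direction, and the log2 fold of 0.47 ± 0.13 did not pass by edgeR (adjusted p = 0.058). It passed by DESeq2 (adjusted p = 0.0096) and, without replicate 2 with SMARTA cells, by edgeR (0.61, adjusted p = 0.0027). Entpd1 read 7.88, 7.95 and 7.96 against 7.88, 7.42 and 7.74 log2 CPM (-0.23 ± 0.11, edgeR adjusted p = 0.21). Nt5e read 7.07, 6.99 and 7.14 against 7.03, 6.59 and 7.15 log2 CPM (-0.12 ± 0.12, edgeR adjusted p = 0.58), and its fold was positive over the gene body alone (0.10).

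**Figure D3:**
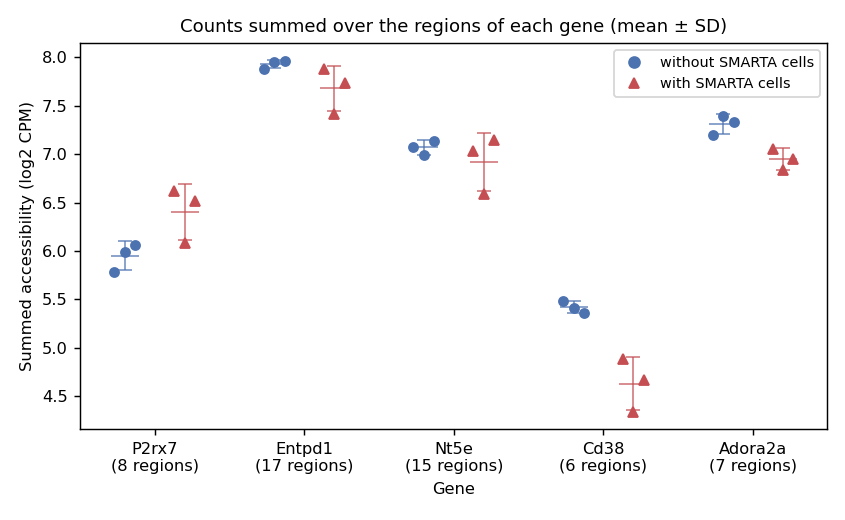
Counts summed over each gene's regions, as log2 CPM, in each library (circles without, triangles with SMARTA cells; bars are mean ± SD of 3 libraries). The groups are apart at P2rx7 (higher with SMARTA cells), Cd38 and Adora2a (both lower) and overlap at Entpd1 and Nt5e. Among all 15956 genes, the libraries with SMARTA cells lie all above the others in 2367 and all below in 2550. Separation alone is therefore common and does not set these genes apart. The level of a sum rises with the number of regions, which is given under each gene.

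P2rx7 and Cd38 can also be compared within each library, where scaling between libraries plays no part. The log2 ratio of summed P2rx7 to summed Cd38 was 0.30, 0.59 and 0.70 without SMARTA cells and 1.74, 1.74 and 1.84 with them. Against Adora2a it was -1.42, -1.40 and -1.27 and then -0.43, -0.76 and -0.44. Against Entpd1 it was -2.09, -1.95 and -1.89 and then -1.26, -1.34 and -1.22. Against Nt5e it was -1.29, -0.99 and -1.08 and then -0.41, -0.51 and -0.64. The shift is therefore not particular to Cd38 or Adora2a. Summed P2rx7 was higher and those 2 genes lower in every library with SMARTA cells, so their ratios had to separate. All these ratios were chosen after the values were seen and were not tested.

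**Figure D4:**
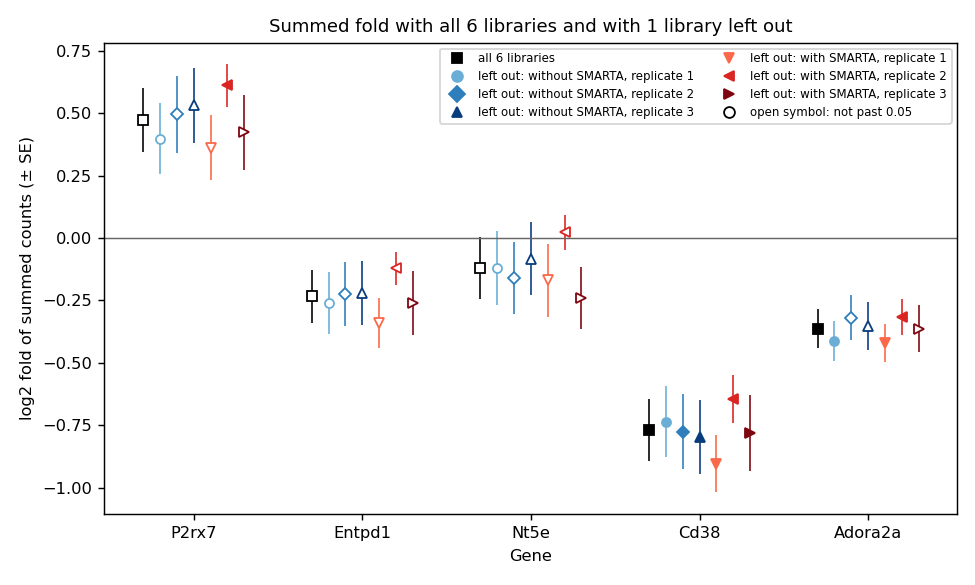
Log2 fold of summed counts (± SE) for each gene with all 6 libraries and with each library left out, where open symbols did not pass an adjusted p of 0.05. Cd38 is filled in all 7 positions (-0.90 to -0.64), P2rx7 is positive in all and filled only without replicate 2 with SMARTA cells, and Nt5e crosses 0.

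The regions nearest to each gene's start or lower-coordinate end all span 400 bases, so the levels of these regions can be set in order. They are not like sites, and the order does not rank the genes. The Entpd1 region is shared with Tctn3, and its counts cannot be given to either gene. Those of P2rx7 and Cd38 are centred 0.46 and 0.58 kb inside the gene, while the others cover the gene's end. Without SMARTA cells the order was Adora2a (5.81 ± 0.21 log2 CPM), Entpd1 (5.64 ± 0.11), Nt5e (4.34 ± 0.20), Cd38 (4.08 ± 0.14) and P2rx7 (2.85 ± 0.17). Adora2a and Entpd1 overlapped in range, and Nt5e and Cd38 touched at 4.20. With SMARTA cells the order was Entpd1 (5.80 ± 0.04), Adora2a (5.37 ± 0.12), Nt5e (4.40 ± 0.08), and then P2rx7 (3.36 ± 0.46) with Cd38 (3.35 ± 0.22), whose ranges overlapped. Cd38 lay above P2rx7 in every library without SMARTA cells.

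Genes beside the members were read by the same rule. At Adora2a both neighbours shifted down as well. Specc1l, 4.48 kb away, held 3 closed of 14 regions with a summed log2 fold of -0.36 ± 0.09 (edgeR adjusted p = 0.039). Upb1, 72.12 kb away, held 3 closed of 13 (-0.79 ± 0.13, edgeR adjusted p = 0.0079). The fold of Upb1 was further from 0 than the -0.36 ± 0.08 of Adora2a, a difference that was not tested. Neighbours of the other members did not pass as sums. Cc2d2b, 7.15 kb from Entpd1, held 2 closed of 8 regions, and its summed log2 fold of -0.38 ± 0.12 (edgeR adjusted p = 0.089) was further from 0 than the -0.23 ± 0.11 of Entpd1; that difference was not tested. Tctn3, on the other side of Entpd1, had 0.10 ± 0.07 (edgeR adjusted p = 0.42). Snx14, 4.67 kb from Nt5e, had 0.01 ± 0.09 (edgeR adjusted p = 0.94), and Tbx18 -0.71 ± 0.41 (edgeR adjusted p = 0.32). Bst1, a related NAD-consuming enzyme 25.34 kb from Cd38, had -0.17 ± 0.10 (edgeR adjusted p = 0.32) with 1 closed of 9 regions. Fgfbp1, on the other side of Cd38, had 0.05 ± 0.09 (edgeR adjusted p = 0.74), and Ift81, 29.38 kb from P2rx7, 0.18 ± 0.10 (edgeR adjusted p = 0.27). P2rx4, another ATP-gated channel, 15.18 kb from P2rx7, had 0.29 ± 0.10 (edgeR adjusted p = 0.11) with 1 closed of 4 regions.

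Beyond the members, 49 genes of ATP, NAD and adenosine handling were listed by their textbook roles, and 46 of them held regions. Of 332 regions 28 closed, 17 opened and 287 did not pass, or 13.6% called against the 15.1% of all regions, with a median log2 fold of 0.02. Closed regions alone were at 11 of the genes, opened ones alone at 8, both at 4 and neither at 23. Pde4b, which encodes a phosphodiesterase that degrades cyclic AMP, held the most, with 8 closed and 0 opened of 32. Its summed log2 fold of -0.38 did not pass (edgeR adjusted p = 0.07). Its strongest region (chromosome 4, 102393603 to 102394003, within Pde4b) fell from 3.89, 4.37 and 4.02 to 1.97, 0.56 and 1.29 log2 CPM (-2.76 ± 0.32, edgeR adjusted p = 0.00056).

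Among transporters, Slc29a3, a nucleoside carrier, had 1 closed region of 4 (-2.75 ± 0.29), while its most accessible region had means of 5.65 and 5.85 log2 CPM. Entpd6, a relative of CD39, had 1 closed of 2 (-2.64 ± 0.29), and Acpp, an acid phosphatase that can also make adenosine, 2 closed of 10 (-2.36 ± 0.33). Adcy7, an adenylyl cyclase, had 2 closed of 11 (-1.42 ± 0.22), and Pde4d, a second phosphodiesterase, 2 closed and 2 opened of 50. Opened regions were at several genes of the list, among them Creb1, a factor that answers to cyclic AMP (4 opened and 1 closed of 15, with 1.44 ± 0.23 at the strongest). Adk, adenosine kinase, which removes adenosine inside cells, held 1 opened and 1 closed of 15 (1.53 ± 0.27 at the strongest). Art2b, whose product ADP-ribosylates P2X7, held 1 closed and 0 opened of 9. Of the adenosine receptors other than Adora2a, Adora2b had 0 called of 3 regions and Adora1 0 of 1 (edgeR adjusted p = 0.31 and 0.39 at the strongest; 0 of these 4 regions had an unadjusted p under 0.05).

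CD39 and CD38 are also made by myeloid cells, B cells and regulatory T cells, so markers of these were read beside them. Myeloid markers had regions for 7 of 8 genes (Lyz2 had none) and summed to 111.8 to 129.2 CPM without and 96.66 to 112.8 CPM with SMARTA cells, with 3 closed and 1 opened of 20 regions. B cell markers had regions for 4 of 6 genes and summed to 68.82 to 99.8 and 52.69 to 71.59 CPM, with 1 closed of 15, at Pax5. Regulatory T cell markers had regions for 3 of 3 genes and summed to 313.2 to 346.4 and 223.9 to 331.5 CPM, with 3 closed of 26, and Foxp3 had 1 region of 1.19 and 1.26 log2 CPM. Activated CD8 T cells also express Il2ra, 1 of the 3. Both ends of the range were lower with SMARTA cells in all 3 lists, the ranges overlapped, and their part in the Cd38 and Entpd1 results was not tested. Summed levels did not overlap for 2 further lists. CD4 T cell markers went from 191.3 to 230.9 CPM without to 239.8 to 257.1 CPM with SMARTA cells. All 4 opened regions were at Cd40lg, which also had 1 closed of 14, while Cd4 itself had 1 closed and 0 opened of 3. Endothelial and stromal markers went from 206.1 to 223.7 to 150.9 to 170.8 CPM, with all 4 closed regions at Pecam1, which T cells can also express. Dendritic cell, NK cell and melanoma markers overlapped between the groups (170.4 to 206.7 and 149.1 to 210.7, 406.2 to 454.3 and 400.1 to 487.4, and 267 to 284.8 and 283 to 313.8 CPM). The part of these lists in the members' results was not tested either.

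By summed log2 CPM over the 6 libraries, the genes most like each member, among 8681 with at least 3 regions, were Tmem135 and Twist2 for Cd38 (r = 0.998 each), Btnl9 and Chrm4 for Adora2a (0.997 each) and Cemip2 (0.998) and Nabp1 (0.997) for Entpd1. The values were highest for Mier1 (0.996) and Cxcr3 (0.991) for P2rx7 and Zbtb10 (0.997) and Gna13 (0.992) for Nt5e. With 6 libraries such values are common: 731 genes exceeded 0.9 with Cd38, 620 with Adora2a, 569 with Entpd1, 203 with P2rx7 and 181 with Nt5e. These are descriptions of shared libraries and scaling and carry no test.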

How the data were processed

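Open chromatin was profiled by ATAC-seq in 6 libraries, 3 a group, grouped by their titles. The members and lists were chosen with earlier results of these data known. The authors deposited whole-number read counts for 74686 regions, not normalized, and a peak list for each library. The deposited lists carry for every peak its fold enrichment (a ratio), its −log10 p and −log10 q and a score, all the authors' values, used here only to describe peaks. MACS2 2.1.1, DiffBind 3.4.11, Picard 2.18.9, SAMtools 1.8, BWA 0.7.17 and the build GRCm38 are listed in the submitters' processing notes, without settings. How duplicates, the transposase shift and the choice of regions were handled is not stated there, and leftover duplicates would inflate counts.

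Counts were tested with edgeR 4.0.16 (R 4.3.3; TMM scaling, filterByExpr, glmQLFit and glmQLFTest) over all regions, and, summed per gene, over 15956 genes. The p-values were Benjamini-Hochberg adjusted with a threshold of 0.05, and the SE is the size of the fold over the root of F. Levels are log2 CPM with a prior count of 2. The code was tested on simulated data. Alternatives were DESeq2 1.42.0, its size factors, loess scaling (limma 3.58.1), a mean count of at least 50, no filter, a replicate block, narrower assignment and leaving out each library.

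Gene intervals came from RefSeq (GRCm38.p6), which here give no exons, introns or UTRs. Positions are printed as deposited. Peaks were counted from an overlap of 1 base. Regions were named by rule: for each member every called region, the region with the smallest p, the most accessible and the one nearest to the start; of the list, the 8 genes with the smallest p among those with a call; and the 2 genes most correlated with each member. Other named regions and genes (among them neighbours, Art2b, Bst1, P2rx4, Adora1, Adora2b and several uncalled member regions) were added after their values were seen. The labels do not say that a shared replicate number marks a shared animal, litter or day, so the numbers were not taken as pairs. Same-numbered libraries also did not deviate together (r = -0.020, -0.078 and 0.076).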

Additional observations from a re-analysis of the deposited data

How the results depend on the processing

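Precision is limited by 3 libraries a group and by depth, which was not varied, and no genome sequence was used. Regions called, with each library left out, ranged from 6074 to 12669 over all regions, 2 to 5 at Entpd1, 2 to 4 at Nt5e, 0 to 3 at Cd38, 1 to 2 at Adora2a, 0 to 3 at P2rx7 and 26 to 50 in the pathway list. Summed log2 folds ranged from -0.34 to -0.12 at Entpd1, -0.24 to 0.02 at Nt5e, -0.90 to -0.64 at Cd38, -0.42 to -0.31 at Adora2a and 0.36 to 0.61 at P2rx7. The positive Nt5e value came without replicate 2 with SMARTA cells; without it the most accessible Nt5e region was at 0.13 (range -0.46 to 0.13 over the libraries left out), and without replicate 2 of the other group the Nt5e start region was at -0.01 (range -0.01 to 0.18). Counting only gene bodies, or only regions within 20 kb, left 1 call at Nt5e and 1 at Adora2a, since fewer regions were counted, and gave Nt5e sums of 0.10 and 0.09. By DESeq2 the P2rx7 sum of 0.47 passed (adjusted p = 0.0096); the cause was not tested. With the replicate number as a block, P2rx7 had 0 called regions (log2 fold 0.76, edgeR adjusted p = 0.054), and 10 of the 11 member calls were the same. Under both other scalings, the count minimum and DESeq2, all 11 were called again. The filter on low counts removed no region, so the fit without it was the same fit and adds nothing.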

Other observations

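The deposited peak lists hold 13 sites inside Entpd1, Nt5e and P2rx7 that no region of the count table covers, so they were not tested. Most of these sites rest on a peak of only 1 list, with a fold enrichment of 1.58 to 2.86. Those described next were found in the most lists. The first lies at the internal start of Entpd1 (40659552 to 40660507), over the window printed for that start, where a peak of all 3 lists without SMARTA cells and all 3 with them was present. In the 3 lists whose peak there overlaps no tested region, the authors' fold enrichment was 4.84 to 5.20. A second lies in P2rx7 (122652382 to 122652936), next to that gene's most accessible region, with a peak in 3 and 3 lists and a fold enrichment of 3.44 to 6.88 in 5 of them. Another lies in Nt5e (88357762 to 88358096), next to the region that opened, with a peak in 3 and 3 lists and 4.56 to 7.06 in 4 of them. Peak presence depends on depth and is given as a description.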
